A study of Xenopus tropicalis with 12 samples.

Results

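In the RNA-seq of tadpole brain, 4 features shared a single pattern: *otop1* (XLOC_027864), *OTOL1* (XLOC_030373), *pla2g2e* (XLOC_025285) and *xb-gene-5779195* (XLOC_035114) were high in every WT T3 library and near 0 in all others. They were chosen by that pattern, selected on their expected counts and TPM across the 4 groups, as 4 of the 33875 features in the deposited tables, so their contrast of WT T3 with WT vehicle is given as a description, with no test. All 4 passed the filter on low counts that left 22018 features for testing, and *otop1* and *OTOL1* passed it only through the WT T3 libraries.

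Otoliths and otoconia are calcium carbonate crystals on a protein scaffold that lie over the sensory hair cells of the inner ear and are used to sense gravity. *OTOL1* encodes otolin 1, a secreted collagen-like protein of that scaffold, and *otop1* encodes otopetrin 1, a proton channel that mice need to form otoconia and that is also the sour taste receptor of the mouse. *pla2g2e* encodes a secreted phospholipase A2, an enzyme that cleaves membrane phospholipids; otoconins, the main matrix proteins of otoconia, carry a related fold. *xb-gene-5779195* encodes a cysteine-rich secretory protein of the CAP family, for which no role in otoliths is known from its name. An otolith link by name is therefore carried by *otop1* and *OTOL1* alone, and none of the 4 is a gene by which brain tissue is recognised.

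RNA came from the preoptic area, thalamus and hypothalamus of *X. tropicalis* tadpoles at NF stage 54, a premetamorphic stage, and the dissected tissue held the pituitary. WT and thra mutant tadpoles were kept for 16 h in water with 5 nM T3 (3,5,3'-triiodothyronine, the active thyroid hormone) or with vehicle, the NaOH in which T3 was dissolved. Each of the 4 groups had 3 libraries, and each library pooled 5 tadpoles. The thra mutants carried a TALEN lesion of exon 4 of the gene for thyroid hormone receptor alpha on both copies, came from crosses of heterozygous carriers of 1 mutant line, and kept the receptor gene *thrb*. The paper obtained WT frogs from NASCO and does not say whether the WT tadpoles were siblings of the mutants. A part of stock or clutch in differences between the genotypes was not tested. The level of *thra* itself was not analysed here, so the genotype labels were not checked by it. A library held 41012459 to 67603703 expected counts. *snap25*, a synaptic gene of neurons, stood at 658 to 805 counts-per-million (CPM) in every library. It had 746 to 805 CPM in WT vehicle and 658 to 704 in WT T3 (log2 fold change −0.17, adjusted p = 0.065 by edgeR and 0.037 by DESeq2). The other neuronal genes examined, *myt1l* and *dlx1*, rose with T3 in WT by 0.61 and 0.35 (edgeR adjusted p = 7.9e-04 and 0.03). The *dlx1* call was lost in 4 of 19 alternatives. *snap25*, *myt1l* and *dlx1* were paired through the study's table of features called with T3 in WT, so their change there is not independent evidence. Over all features edgeR called 5.37% higher with T3 in WT. *thrb* and *klf9*, which T3 switches on directly, were induced in both genotypes. In pooled tissue, fewer cells of a type and less RNA per cell cannot be told apart.

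*otop1* had expected counts of 73, 122.24 and 126.85 in the 3 WT T3 libraries. In WT vehicle it had 1, 0 and 0, in thra mutant vehicle 2.02, 0 and 0, and in thra mutant T3 2, 0 and 0. The channel gene was thus read in each WT T3 library and at 0 in 6 of the 9 others, where a count of 0 allows up to 3 counts, or 0.0446 to 0.0626 CPM. *otop1* averaged 2.26 ± 0.708 CPM in WT T3 (SD, n = 3). Pooled over libraries, its CPM was 342 times that of WT vehicle, 200 times that of thra mutant vehicle and 190 times that of thra mutant T3. The exact 95% intervals of these ratios, which cover counting error only, were 60.9 to 13600, 54.8 to 1660 and 52.3 to 1580. The counts of 1 and 2 in the other groups set the width of these intervals, and the lowest WT T3 library (1.55 CPM) lay far above the highest other library (0.0395 CPM).

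*OTOL1*, the scaffold gene, had expected counts of 175.95, 202.68 and 292.1 in WT T3. It had 3.03, 3.92 and 4.04 in WT vehicle, 0, 10.97 and 2.74 in thra mutant vehicle, and 1, 2.01 and 2.93 in thra mutant T3. WT T3 did not overlap any other group, and the highest of the remaining libraries was thra mutant vehicle replicate 2. In CPM, *OTOL1* stood at 0.0720 ± 0.0119 in WT vehicle and 4.63 ± 0.778 in WT T3 (SD, n = 3 each), a log2 fold change of 5.97 with a standard error of 0.52. Its pooled CPM in WT T3 was 64.8 times that of WT vehicle (exact 95% interval 36.0 to 130), 59.4 times that of thra mutant vehicle (35.2 to 109) and 132 times that of thra mutant T3 (60.4 to 362). These intervals too cover counting error only.

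*pla2g2e*, the phospholipase gene, reached the highest level of the 4. Its expected counts were 3505.92, 4464.17 and 5558.18 in WT T3. They were 22.11, 22 and 20 in WT vehicle, 30, 74.5 and 9.04 in thra mutant vehicle, and 11, 10 and 9 in thra mutant T3. The WT vehicle libraries were nearly equal, whereas the thra mutant vehicle libraries spread over 0.134 to 1.39 CPM. *pla2g2e* was at 94.1 ± 17.6 CPM in WT T3 (SD, n = 3). Its pooled CPM was 225 times that of WT vehicle (exact 95% interval 176 to 292), 147 times that of thra mutant vehicle (122 to 179) and 533 times that of thra mutant T3 (373 to 790). The intervals cover counting error only and leave out the spread between libraries.

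*xb-gene-5779195*, the CAP family gene, had expected counts of 716.79, 1175.72 and 1219.78 in WT T3. It had 4.74, 11.08 and 12.82 in WT vehicle, 15.53, 27.92 and 15.04 in thra mutant vehicle, and 14.77, 2.71 and 12.41 in thra mutant T3. Among the low groups the ranges overlapped, and WT T3 lay apart from all of them. The gene averaged 21.9 ± 6.69 CPM in WT T3 (SD, n = 3). Its pooled CPM was 114 times that of WT vehicle (exact 95% interval 79.2 to 170), 66.5 times that of thra mutant vehicle (51.3 to 87.8) and 123 times that of thra mutant T3 (85.7 to 182), again with counting error only in the intervals.

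**Figure D1:**
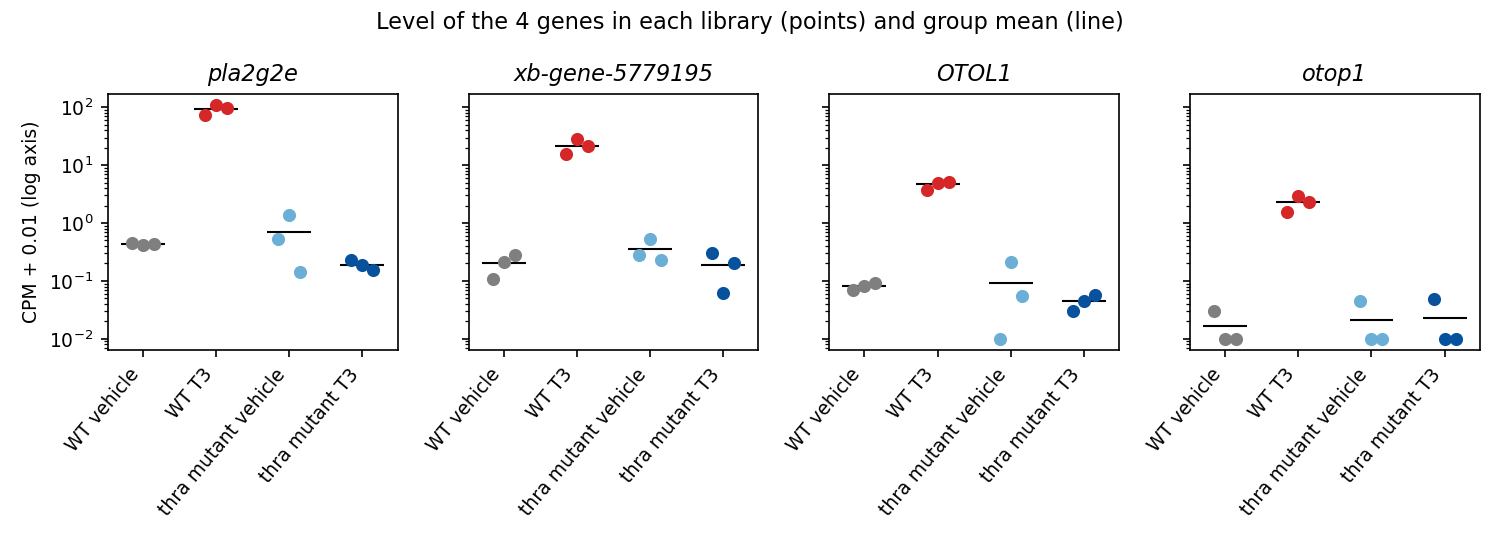
CPM plus 0.01 (log axis) of each gene in each of the 12 libraries (points) by group, with the group mean as a line (n = 3 per group). For every gene the 3 WT T3 libraries lie above the 9 others; the lowest WT T3 values are 74.6, 15.3, 3.75 and 1.55 CPM for *pla2g2e*, *xb-gene-5779195*, *OTOL1* and *otop1*.

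How far these genes stood from other features was measured by the lowest WT T3 library over the highest of the 9 other libraries, with 0.1 CPM added to each. A ratio of at least 10 was reached by 4 of 22018 features (0.0182%), and these were the 4 genes themselves: 50.2 for *pla2g2e*, 24.6 for *xb-gene-5779195*, 12.6 for *OTOL1* and 11.9 for *otop1*. The genes were chosen for this same pattern, so their place at the top restates the choice and is a description only. The next feature, XLOC_028212, for which no gene name is paired here, had a ratio of 6.58 and was low in level, with counts of 53, 42 and 39 in WT T3 and 1 or 0 elsewhere. XLOC_041386, also without a name, had 3.32, 1 feature of *thibz*, a leucine zipper gene that T3 induces in tadpoles, had 3.05, and the carbonic anhydrase gene *ca12* had 2.92. By contrast, WT T3 libraries that all lay above the 9 others were found for 1604 features (7.28%). The choice of 0.1 CPM bears on the low genes: with 0.5 CPM only *pla2g2e* and *xb-gene-5779195* reached a ratio of 10.

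**Figure D2:**
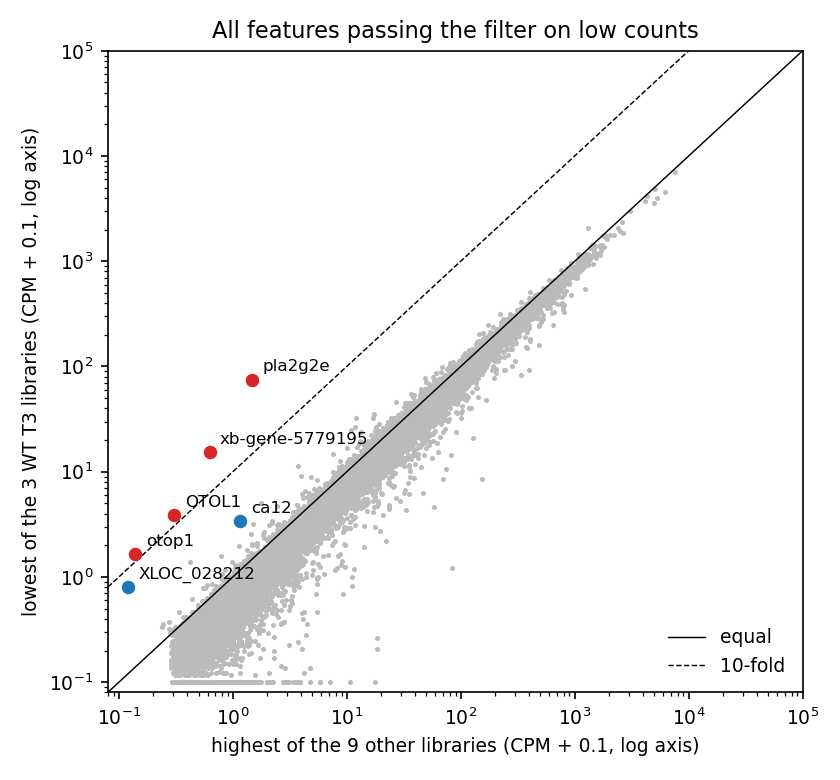
Each of the 22018 features passing the filter (grey points) by its highest CPM among the 9 libraries outside WT T3 (x) and its lowest CPM among the 3 WT T3 libraries (y), both plus 0.1 on log axes. The 4 genes (red) are the features above the dashed 10-fold line, *otop1* and *OTOL1* close to it with 11.9 and 12.6; XLOC_028212 and *ca12* (blue) lie between that line and equality.

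Between genes, levels were compared in transcripts-per-million (TPM), which take the length of the transcript into account. In WT T3, *pla2g2e* was at 91.61, 133.14 and 122.9 TPM, *xb-gene-5779195* at 34.97, 65.46 and 50.35, *OTOL1* at 6.42, 8.44 and 9.02, and *otop1* at 2.83, 5.41 and 4.17. The genes kept this order in each WT T3 library, and no range overlapped the next. *pla2g2e* ranked 1430th of the 33875 features by mean TPM in WT T3, with 95.8% of features lower, against rank 23291 in WT vehicle. *xb-gene-5779195* ranked 3994th, while *OTOL1* and *otop1* ranked 13695th and 16265th even in WT T3. The secreted phospholipase was therefore an abundant transcript of these libraries, and both genes with an otolith name were of middling rank.

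The 4 genes stood in similar proportion in the WT T3 libraries. *pla2g2e* made up 62.7% to 67.4% of their summed TPM, *xb-gene-5779195* 25.7% to 30.8%, *OTOL1* 3.97% to 4.84% and *otop1* 2.08% to 2.55%. Replicate 1 had the lowest CPM of the 3 for all 4 genes, and the sum was 136, 212 and 186 TPM in replicates 1, 2 and 3. Outside WT T3 the sum was 0.39 to 3.24 TPM and the proportion was not kept. Expected counts there were only 9 to 74.5 for *pla2g2e* and 2.71 to 27.92 for *xb-gene-5779195*, so ratios between them rest on few reads. The TPM of *pla2g2e* was 2.03 to 2.62 times that of *xb-gene-5779195* in WT T3 and 0.32 to 2.45 times in the other libraries, and it was the higher of the pair in 5 of those 9.

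Among the low groups, only *pla2g2e* and *xb-gene-5779195* could be tested, and neither passed. *otop1* and *OTOL1*, which fail the filter once WT T3 is set aside, have the counts given above and no test there. The tests of the other pair had a restricted range too, because the choice of genes kept all 9 of these libraries low, so 0 calls is no measure of a lack of response. With T3 in the thra mutant, edgeR's quasi-likelihood test called 56 of 22018 features (0.254%). *pla2g2e* averaged 0.679 ± 0.643 CPM in thra mutant vehicle and 0.179 ± 0.0370 in thra mutant T3 (SD, n = 3 each), or −1.86 on the log2 scale (SE 0.67), with an unadjusted p of 0.015 and an adjusted p of 0.34 (edgeR). The log2 fold change of *xb-gene-5779195* was −0.91 (SE 0.54, edgeR adjusted p = 0.64). DESeq2 and limma-voom also called 0 of these 2 genes, and 1 and 0 of them had an unadjusted p below 0.05.

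Between the vehicle groups, edgeR called 127 of 22018 features (0.577%), and 0 of the 2 genes. The log2 difference of thra mutant from WT was 0.81 (SE 0.55, edgeR adjusted p = 0.58) for *xb-gene-5779195* and 0.62 (SE 0.57, edgeR adjusted p = 0.70) for *pla2g2e*. By edgeR, DESeq2 and limma-voom 0 of the 2 were called and 0 had an unadjusted p below 0.05. Here too the choice of genes kept both groups low, so 0 calls is no measure of equal baselines. Without thra mutant vehicle replicate 2 the difference changed sign for *pla2g2e* (−0.41).

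That library was the highest of the 9 low ones for 3 of the 4 genes. *pla2g2e* stood there at 1.70 TPM, or 1.47% of its mean in WT T3, *xb-gene-5779195* at 1.19 TPM (2.37%) and *OTOL1* at 0.35 TPM (4.40%), while *otop1* was at 0. The other 2 thra mutant vehicle libraries had 0.62 and 0.16 TPM of *pla2g2e*. *ca12*, the named gene most like the 4 in its profile, was not raised there, with 0.619 CPM against 1.06 and 0.685 in the other thra mutant vehicle libraries. The inner ear and epithelial genes examined below were mixed there. Within thra mutant vehicle, *scnn1a* (1.33 CPM against 0.704 and 0.833), *slc34a2*, *epcam*, *krt5.1* and the *col9a3* or *ogfr* feature were highest in it. *frem3* (3.08 CPM against 4.55 and 3.88), *tecta.2*, *ca14*, *ush1g* and *krt12* were lowest, and *cldn3* and *cnfn.1* lay between. Whether the pooled tissue of that library differed was not tested.

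**Figure D3:**
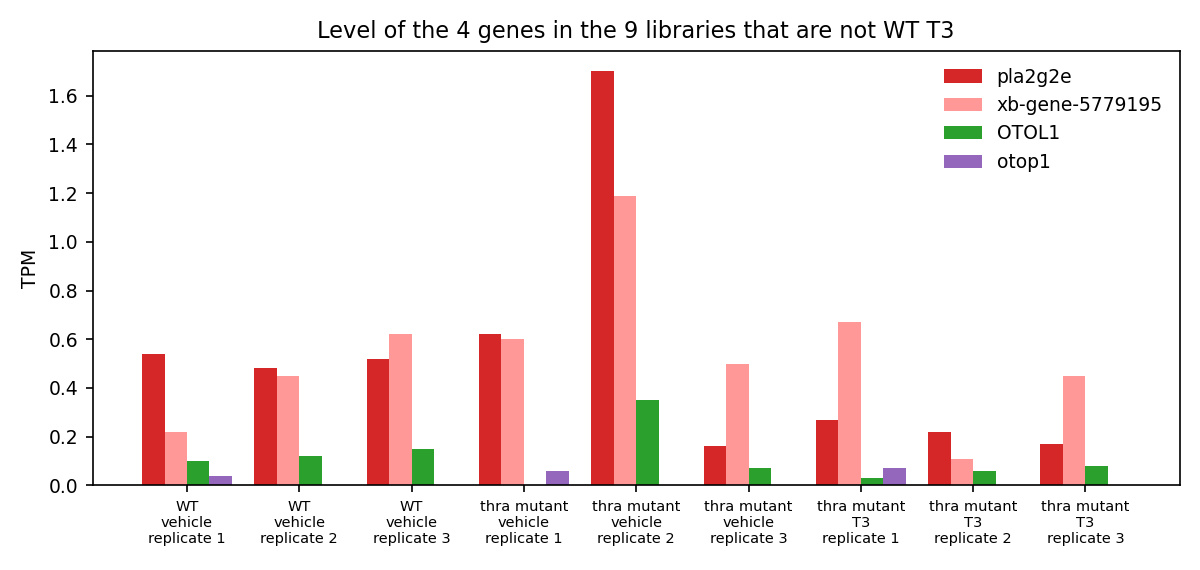
TPM of the 4 genes (bars) in each of the 9 libraries outside WT T3, on an axis from 0. Thra mutant vehicle replicate 2 is highest for *pla2g2e* (1.70), *xb-gene-5779195* (1.19) and *OTOL1* (0.35), and no bar is drawn where a gene was at 0, as for *otop1* in 6 libraries.

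Likeness of profile was measured as Pearson's r of log2(CPM + 0.5) with the mean standardized profile of the 4 genes over the 12 libraries, which share 4 groups. The 5 features outside the set with the highest r were XLOC_028212 (0.978), *ca12* (0.973), XLOC_000349, which is paired with *pan2* and xb-gene-972113 (0.972), XLOC_019856 (0.968) and *kiaa1826* (0.962). This ranking was not stable: 3 of the 5 remained with 2 CPM added in place of 0.5, and 0 by Spearman's rho. Likeness of profile did not mean likeness of size. *kiaa1826* (XLOC_003662) had 133 ± 7.50 CPM in WT vehicle and 175 ± 5.04 in WT T3, and XLOC_019856 had 50.5 ± 1.93 and 69.4 ± 1.76 (SD, n = 3 each). Of the 5, only XLOC_028212 and *ca12* had a ratio of lowest WT T3 to highest other library above 2.

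Genes of the inner ear matrix and the endolymph, the fluid of the inner ear, were examined beside the 4 genes. An identifier could be paired for 6 of the 13 listed, all through the study's own table of features that it called in these samples. Their direction in WT is therefore not independent evidence. No identifier was paired for *otog*, *otogl*, *oc90*, *tectb*, *coch*, *slc26a4* and *otoa*, so their levels are not known here. Of the paired genes, *ca14*, the *col9a3* or *ogfr* feature and *ush1g* already averaged 71.5, 31.2 and 15.3 CPM in WT vehicle. In WT, 4 of the 6 rose with T3 and 0 fell, where edgeR called 1182 of 22018 features higher (5.37%), and the list's median log2 fold change was 0.80 against −0.02 over all features. DESeq2 called all 6 higher and limma-voom 3. *ca12*, a carbonic anhydrase of the cell surface, rose from 0.617, 0.474 and 0.501 CPM in WT vehicle to 3.30, 4.41 and 5.69 in WT T3, which is 3.07 on the log2 scale (SE 0.26, edgeR adjusted p = 1.3e-05). It stood at 1.06, 0.619 and 0.685 CPM in thra mutant vehicle and 0.770, 0.668 and 0.716 in thra mutant T3. WT T3 was thus separate from every other library for *ca12* too, although from a vehicle level well above 0.

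The other risers of that list moved less. *slc34a2*, a sodium phosphate transporter, had a log2 fold change of 1.27 (adjusted p = 0.014, edgeR), *tecta.2*, related to the tectorin that forms the tectorial membrane in mammals, 1.65 (adjusted p = 0.043), and *ca14*, a further membrane carbonic anhydrase, 0.32 (adjusted p = 0.022). *tecta.2* was highest in WT T3 replicate 1, with 2.72 CPM against 0.974 and 1.12, the library in which the 4 genes were lowest. Without that library its log2 fold change was 1.04 (adjusted p = 0.22, edgeR), and its call was lost in 9 of 19 alternatives, among them the omission of any WT vehicle library, of WT T3 replicate 3 and of thra mutant vehicle replicate 1 or 3. The call of *ca14* was lost in 3 of 19 alternatives, among them the omission of WT T3 replicate 1 (adjusted p = 0.10, edgeR) or WT vehicle replicate 3 (0.054). That of *slc34a2* was lost without WT T3 replicate 3 (0.074). *ush1g*, a scaffold protein of hair cells, had 0.30 (adjusted p = 0.054, edgeR) and the feature paired with *col9a3* and *ogfr* 0.19 (adjusted p = 0.056); DESeq2 gave them adjusted p values of 0.014 and 0.015.

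In the thra mutant 0 of these 6 genes were called, where 0.254% of all features were, 0 had an unadjusted p below 0.05 by edgeR, and the median log2 fold change was 0.04; DESeq2 and limma-voom called 0 as well, with 0 and 1 below 0.05 unadjusted. The responses of the genotypes differed for *ca12*, by −3.21 on the log2 scale in the mutant relative to WT (SE 0.36, edgeR adjusted p = 0.0014), and for 0 of the other 5, of which DESeq2 gave 2 no adjusted p, where 116 of 22018 features (0.527%) were called. The pairing through features called in WT makes that share no fair baseline. The summed level of the list was 113 to 124 CPM in WT vehicle and 148 to 156 in WT T3. In the thra mutant it was 127 to 134 CPM with vehicle and 136 to 145 with T3. Most of each sum was *ca14*, at 84.9 to 96.2 CPM in WT T3. No gene of the list was at 0 in any library, whereas *otop1* was at 0 in 6 libraries and *OTOL1* in 1.

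Genes of barrier epithelia, such as the skin and the linings next to the brain that could enter a dissection, were examined in the same way. Of 10 listed genes, 7 were paired, all through the same table, so their direction in WT is not independent evidence either. In WT 4 rose with T3 and 1 fell by edgeR, where 5.37% of all features were called higher and 5.53% lower, and the median log2 fold change was 1.66; DESeq2 called 6 higher and 1 lower, and limma-voom 4 and 1. *scnn1a*, a subunit of the epithelial sodium channel, had 1.37, 1.68 and 1.44 CPM in WT vehicle and 5.02, 5.62 and 4.96 in WT T3 (log2 fold change 1.79 with a standard error of 0.21, edgeR adjusted p = 3.7e-04). *frem3*, a basement membrane protein gene, rose by 1.66 (adjusted p = 7.8e-05), *cldn3*, of tight junctions, by 1.03 (adjusted p = 0.014) and *epcam*, of epithelial cell adhesion, by 0.72 (adjusted p = 0.036), while the keratin gene *krt5.1* fell by 0.17 (log2 fold change −0.17, adjusted p = 0.042, edgeR). *krt12* (1.94, adjusted p = 0.071, edgeR) and *cnfn.1* (1.73, adjusted p = 0.052), of the outer skin layer, did not pass by edgeR and did by DESeq2 (adjusted p = 0.043 and 0.012). The calls of *epcam* and *krt5.1* were each lost in 6 and 13 of 19 alternatives, for both among them the omission of any of the 3 WT T3 libraries and of WT vehicle replicate 2 or 3. The *krt5.1* call was also lost without thra mutant vehicle replicate 3 or any 1 of the 3 thra mutant T3 libraries, and that of *cldn3* without WT T3 replicate 1 (adjusted p = 0.057, edgeR).

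Part of this list shared the grouping of the 4 genes: for 4 of the 7, *scnn1a*, *frem3*, *cldn3* and *epcam*, all WT T3 libraries lay above the 9 others. That order also held for 3 of the 6 paired inner ear genes, 6 of the 6 direct T3 response features given below and 0 of 3 neuronal genes. Over all features it held for 7.28%, a share that is no fair baseline here. The lists were paired through a table of features that the study had called in these samples. The lowest WT T3 library against the highest other one was 4.96 against 1.68 CPM for *scnn1a*, 8.86 against 4.73 for *frem3*, 3.03 against 1.97 for *cldn3* and 9.48 against 9.01 for *epcam*. The order did not hold for *krt5.1*, *cnfn.1* and the keratin gene *krt12*. *krt12* was highest in thra mutant T3 replicate 3, at 35.6 CPM against 8.79 to 19.0 in WT T3, and in that library *pla2g2e* was at 0.143 CPM and *otop1* at 0. The low level of *pla2g2e* and *otop1* there was set in advance, since both were chosen for being low outside WT T3. The summed level of the list ran over 165 to 175 CPM in WT vehicle and 174 to 187 in WT T3. In the thra mutant it ran over 172 to 183 CPM with vehicle and 174 to 209 with T3. Most of each sum was *krt5.1*, at 137 to 139 CPM in WT T3 and 156 to 159 in thra mutant T3. The sum therefore says little of the other genes. No gene of the list was at 0 in any library. In the mutant 0 of the 7 genes were called by edgeR, DESeq2 or limma-voom, with 1, 1 and 0 below 0.05 unadjusted, beside 0.254% of all features called by edgeR. The response of *frem3* differed in the mutant by −1.50 on the log2 scale (SE 0.23, edgeR adjusted p = 0.014), a call lost without WT T3 replicate 3 (0.053). That of *scnn1a* differed by −1.32 (SE 0.31) with an adjusted p of 0.096 by edgeR and 0.0080 by DESeq2. The part that other tissue has in the levels of the 4 genes was not tested beyond these values.

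**Figure D4:**
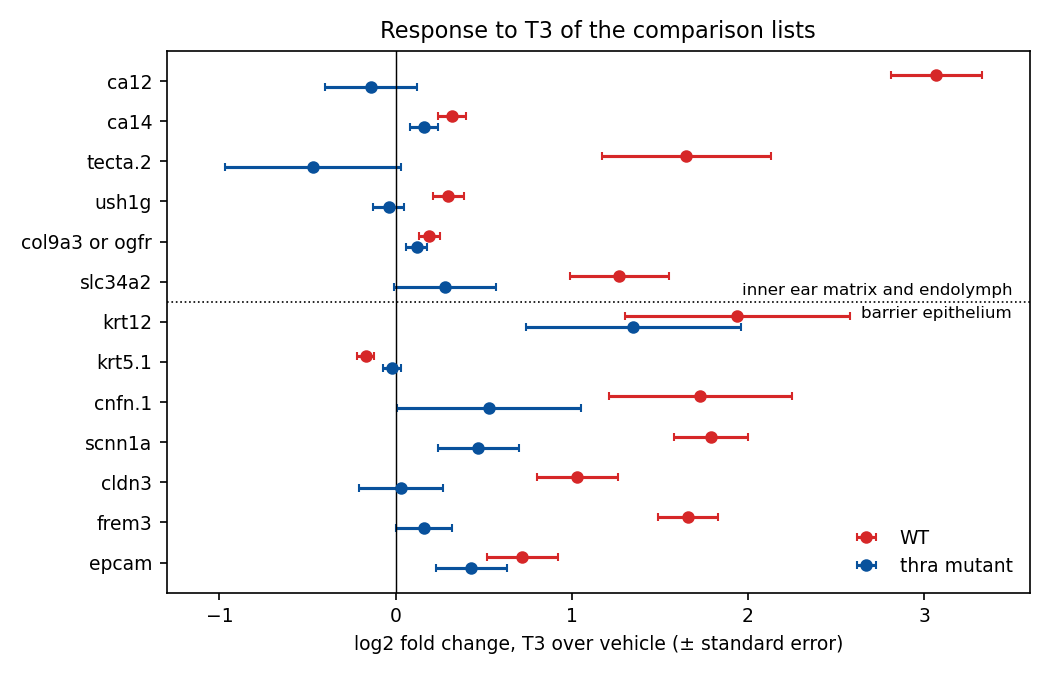
log2 fold change of T3 over vehicle, with its standard error (bars), in WT (red) and thra mutant (blue) for the 6 inner ear genes (above the dotted line) and the 7 barrier epithelium genes (below), n = 3 libraries per group. *ca12* is at 3.07 in WT and −0.14 in the mutant, and *krt12* is above 0 in both.

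Genes that T3 induces directly gave a measure of the hormone response beside the 4 genes. They were paired through the same table, so their rise in WT is not independent evidence. By edgeR, which called 5.37% of all features higher in WT and 0.2% in the thra mutant, all 6 features of this list (*thrb*, *klf9*, *dio3*, *mmp11* and 2 of *thibz*) rose in both genotypes, with a median log2 fold change of 3.55 in WT and 2.11 in the thra mutant. In the mutant DESeq2 and limma-voom each called 5 of the 6, without the *thibz* feature XLOC_028061 (edgeR adjusted p = 0.020, DESeq2 0.071, limma-voom 0.073). Its call there was lost in 6 of 19 alternatives. Among them were these 2 tools and the omission of thra mutant vehicle replicate 1 or 3 or of thra mutant T3 replicate 3. The call of *mmp11* (log2 fold change 0.64, edgeR adjusted p = 0.021) was also lost in 6 of 19. Among these were the omission of any thra mutant vehicle library or of thra mutant T3 replicate 2. Adjusted p values ran up to 0.083 for this *thibz* feature and 0.12 for *mmp11*. *thrb* went from 3.96, 3.91 and 3.64 TPM to 35.22, 29.85 and 35.05 in WT, and from 8.72, 7.67 and 7.47 TPM to 24.22, 23.45 and 21.16 in the thra mutant. The thra mutant T3 libraries carried a T3 response in these genes. *pla2g2e*, which was chosen for being low outside WT T3, stood at 0.143 to 0.217 CPM in them. The cause of its level there was not tested.

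In the current RefSeq annotation (UCB_Xtro_10.0, used here only for gene names and order, since the counts rest on the v4.1 genome), *otop1* lies beside a second copy, *otop1.2*. *xb-gene-5779195* is listed there as *crisp1.7*, in an unbroken run of 6 genes named as cysteine-rich secretory proteins. The sequences of these copies were not compared. Where they are alike, reads could be split among them by the counting. How many reads were split in this way was not tested. The neighbours of *OTOL1* and *pla2g2e* with an identifier, chosen after their values were seen, were *nmd3* and *kpna4* near *OTOL1* and *b3galt6* near *pla2g2e*. Their log2 fold changes with T3 in WT were 0.44, 0.24 and 0.23 (edgeR adjusted p = 0.013, 0.022 and 0.024), small beside the 5.97 of *OTOL1* and the 7.81 of *pla2g2e*. These neighbours were paired through the study's table of features called with T3 in WT, so their calls are not independent evidence. Over all features edgeR called 10.9% in WT, a share that is no fair baseline for them.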

How the data were processed

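Total RNA of 12 libraries was sequenced as single-end reads. The submitters' processing notes name CASAVA 1.8.2, cutadapt, Bowtie, RSEM and limma; the genome was *X. tropicalis* v4.1 with a custom annotation, and no version of RSEM is given. For each feature the authors deposited expected counts, without normalization, with reads of ambiguous origin apportioned by RSEM. TPM values were deposited too, which RSEM makes from those counts and the feature lengths. In a library 56.9% to 59.8% of expected counts were not whole.

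Expected counts were rounded, scaled by TMM (which sets the CPM), filtered with filterByExpr over the 4 groups and tested in 1 edgeR quasi-likelihood fit of all libraries (edgeR 4.0.16, R 4.3.3), with Benjamini-Hochberg adjustment over 22018 features and a threshold of 0.05. Alternatives were limma 3.58.1 with voom (the methods name limma, with no mention of voom), DESeq2 1.42.0, median-of-ratios size factors, no filter, only the groups compared, a replicate block, equal depth, and each library left out in turn. Ratios of pooled CPM have exact conditional 95% intervals. These leave out the spread between libraries and are a description, since the genes were chosen for being high in WT T3. Steps were tested on simulated data. Replicates of a group differed by more than sampling noise (chi-square per degree of freedom 7.13 to 42.2), and p-values measure the spread between pools of tadpoles.

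The 4 genes and the lists were chosen with earlier results of these data known. Named are the 4 genes, all list genes with a paired identifier, the 5 features most like them and the 10 with the highest ratio, of which *igf2* and *scnn1a* had 2.65 and 2.85. Identifiers were paired with symbols through the study's supplementary table of features called with T3 in WT, so calls of paired genes in WT are not independent evidence. Muscle and blood lists were left out because too few genes were paired, 3 neuronal genes are reported (by edgeR 2 rose and 0 fell with T3 in WT, by DESeq2 2 rose and 1 fell, beside 10.9% of all features called by edgeR; 0 were called in the thra mutant by edgeR, DESeq2 or limma-voom, with 1 each below 0.05 unadjusted, beside 0.254%), and *thra* was not analysed here. Some planned results are not reported here. Promoter motifs were not run. FPKM values were not used.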

Additional observations from a re-analysis of the deposited data

Results flagged for a closer look

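The log2 fold change with T3 differed between the genotypes, by edgeR's interaction term, for 5 of the features examined beside the 4 genes, where 116 of 22018 features did (0.527%). That share is no fair baseline, because the features examined were paired through the study's table of features called with T3 in WT. The thra mutant value minus the WT value was −3.21 for *ca12* (adjusted p = 0.0014, edgeR), −1.50 for *frem3* (0.014), −1.60 for *thrb* (4.8e-05), −2.30 for 1 feature of *thibz* (XLOC_028082, 0.016) and −1.64 for *mmp11* (1.9e-04). Those of *ca12*, *thrb* and *mmp11* were called in all 18 alternatives. That of *frem3* was lost without WT T3 replicate 3 (adjusted p = 0.053, edgeR), and that of *thibz* without the same library and with limma-voom, with an adjusted p of up to 0.13 over its alternatives. *klf9* differed by a similar amount, −1.61, and just missed the threshold by edgeR (adjusted p = 0.051). It was called by DESeq2 (0.010) and limma-voom (0.026), and in 6 of 18 alternatives. DESeq2 alone also called *scnn1a* (adjusted p = 0.0080), *myt1l* (0.034) and *dlx1* (0.033). The genotype difference in T3 response was not tested for *otop1*, *OTOL1*, *pla2g2e* and *xb-gene-5779195*, which were chosen for it.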

How the results depend on the processing

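Over 76 alternative values for *pla2g2e* and *xb-gene-5779195* in the thra mutant response and in the baseline comparison, 0 were called and 1 changed sign. All come from the same 12 libraries. The choice of genes kept the libraries of these comparisons low, so 0 calls is no measure of a lack of response there. The fitted values of *otop1* and *OTOL1* there are given with no test, since both pass the filter only through WT T3. At equal depth the T3 response of *otop1* in the mutant was −0.01 on the log2 scale and the baseline difference of *OTOL1* was −0.14, and with limma-voom the latter was −0.85. With each library left out in turn, the mutant response ran over −2.55 to 2.60 for *otop1*, −1.69 to 0.52 for *OTOL1*, −2.40 to −0.82 for *pla2g2e* and −1.40 to −0.48 for *xb-gene-5779195*, and the baseline difference over −1.92 to 2.55, −1.51 to 0.71, −0.41 to 1.16 and 0.38 to 1.12. The adjusted p of the *pla2g2e* response was 0.071 to 0.74 over all alternatives. In fits of only those groups *otop1* and *OTOL1* failed the filter and have no value. For *otop1* the values rest on 1 or 2 counts a group; its fitted description in WT was 7.27 to 9.94, the highest without WT vehicle replicate 1.

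The count of features called in the mutant, 56, was 114 with no filter, 393 with DESeq2, 30 with only the groups compared, and 25 to 179 with a library left out. The baseline count, 127, was 511 with DESeq2, 28 with only the groups compared, and 33 to 504 with a library left out. The WT count, 2399, was 824 to 2528 with a library left out. The 4 features with a ratio of at least 10 became 2 with 0.5 CPM added and remained the same 4 with any library left out. Of the 5 most like features, 3 remained with 2 CPM added and 0 by Spearman's rho. The cause was not tested.

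Replicate numbers did not pair the samples: same-numbered libraries correlated at −0.085 to 0.072 over 18 pairs, and 1 of 12 libraries correlated best with its own number. With the replicate block the counts were 30 in the mutant, 76 at baseline and 1852 in WT.

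With 1 library left out, the T3 response in the mutant changed sign for *ca12* (−0.28 to 0.13), *ush1g* (−0.11 to 0.02), *krt5.1* (−0.05 to 0.02), *cldn3* (−0.14 to 0.25, with −0.03, −0.01 and 0.00 among its values) and *dlx1* (−0.16 to 0.01), none of them called.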
